A study of Caenorhabditis elegans with 4 samples.

Results

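The left arm of chromosome III held 282 of the 839 LSY-2 regions that the authors' combined peak list places on this chromosome, and 282 of 3669 in all. Members were chosen by position alone, as combined peaks on III with a midpoint at or below 3700000 in genome build WS220. All of them lie where the name says, and the boundary at 3.7 Mb is a round coordinate. LSY-2 was mapped in Caenorhabditis elegans embryos by ChIP-seq, the sequencing of DNA recovered with an immunoprecipitated protein, and the 4 samples of the series comprise LSY-2 GFP ChIP (2) and input, the total DNA of the lysate (2). Animals of both groups were of strain OP367, which carries the unc-119(ed3) mutation and the transgene wgIs367, an lsy-2 fusion to TY1, EGFP and FLAG tags together with unc-119. The transgene was introduced by bombardment, and OP367 is a single transgenic line. Worms of both sexes, males and hermaphrodites, were raised together at 20 °C. Fixed chromatin was precipitated with antibodies against GFP, so the signal is that of the tagged protein in whole embryos, in which cell types cannot be told apart. Inputs and an untagged strain were not analysed here.

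The lsy-2 gene encodes a DNA-binding protein of the zinc finger kind that is best known from the ASE neurons of the head, a left and a right taste cell that come to express different receptors. Worm autosomes have a gene-rich central part and 2 arms, and the arms are known for more repeats and more meiotic recombination than the centre. A transcription factor ChIP peak marks a stretch of chromatin recovered with the protein, directly or through partners, and many worm factors share strongly occupied regions. No annotation or genome of WS220 was used here, so the regions carry no gene names and no sequence is shown.

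Each ChIP sample has a list of 30000 peaks, and the series adds a combined list. All 3 name IDR in their source field, a procedure that compares peak ranks between replicates to find reproducible peaks. Read depth is unknown. The authors' score ties at its maximum in 3149 combined peaks, so regions were ordered by the number in their names, with 1 the best. That this number is a rank is an assumption. Peaks of a single list are not replicates of a condition and neighbouring peaks are not independent, and 2 ChIP samples allow no test across samples. Differences are therefore given as counts and shares with exact Clopper-Pearson 95% intervals, which cover counting of peaks only, and no p-value is given.

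The arm was crowded with regions of low rank and had fewer strong ones per Mb than the rest of III. It held 76.2 combined peaks per Mb over 3.7 Mb, against 55.3 per Mb over the remaining 10.1 Mb of III, a ratio of 1.38. The stretch of the same length at the right end of III held 169 peaks, or 45.7 per Mb. The whole list had 36.6 per Mb over 100.2 Mb. The excess of the arm over the rest of III was not spread over all ranks. Among the better-ranked 50% of the combined list the ratio of arm to rest was 0.856, below 1, and with peaks within 5 kb merged it was 0.913. The median combined rank of the members was 2354, against 1604 in the rest of III and 1835 in the whole list. Position chose the members, so their density is a description.

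Rank by rank, the arm had fewer strong regions per Mb than the rest of the chromosome and more weak ones. Among combined ranks 1 to 500 it held 24 peaks, or 6.49 per Mb, against 92 peaks, or 9.13 per Mb, in the rest of III. That made up 8.51% of the members (95% interval 5.53% to 12.4%), against 16.5% of the peaks in the rest of III (13.5% to 19.9%) and 13.6% of the whole list. Ranks 1 to 1000 held 16.7% of the members (12.5% to 21.5%), against 32.7% of the peaks in the rest of III (28.8% to 36.7%) and 27.3% of the whole list. For both thresholds the interval of the arm ended below that of the rest of III. At ranks above 2000 the order turned. These ranks held 174 members, or 61.7% (55.8% to 67.4%), against 219 peaks in the rest of III, or 39.3% (35.2% to 43.5%), and 45.5% of the whole list. Their density was 47.0 per Mb in the arm and 21.7 per Mb in the rest, a ratio of 2.17. Against the whole list, the arm was not poor in strong regions per Mb. The whole list has 500 peaks in ranks 1 to 500 over 100.2 Mb.

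Strong regions were as few at the other end of the chromosome, but weak ones were not as dense there. The left arm and the right end of the same length each held 24 peaks among ranks 1 to 500. Among ranks 1 to 1000 the left arm held 47 and the right end 45. At ranks above 2000 the left arm held 174 and the right end 69. The centre of III between them had 10.7 peaks per Mb at ranks 1 to 500 and 23.5 per Mb at ranks above 2000.

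The same profile stood in each ChIP sample, as far as the replicate lists can show it, since the combined list is not independent of them. In replicate 1 the ratio of arm to rest was 0.749 at ranks 1 to 500, 0.698 at ranks 501 to 1000 and 1.36 at ranks 1001 to 2000. It reached 1.79 at ranks 2001 to 3669 and then declined to 1.52, 1.36, 1.14 and 1.18 over the bands that end at ranks 6000, 10000, 20000 and 30000. In replicate 2 the same 8 bands gave 0.689, 0.784, 0.980, 1.84, 1.72, 1.23, 1.13 and 1.12. In both samples the ratio was lowest among the first 1000 ranks and highest at ranks 2001 to 3669. It came nearer to 1 at the deepest ranks, which can hold background. At ranks 20001 to 30000 the right end of the same length was at least as dense as the arm. It had 139 peaks per Mb against 137 in replicate 1, and 151 against 140 in replicate 2. The centre had 102 and 109 per Mb. The intervals of the first 2 bands reached above 1 in each of the 3 lists. Over ranks 1 to 1000 of the combined list the ratio was 0.704, with an interval of 0.499 to 0.975.

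**Figure D1:**
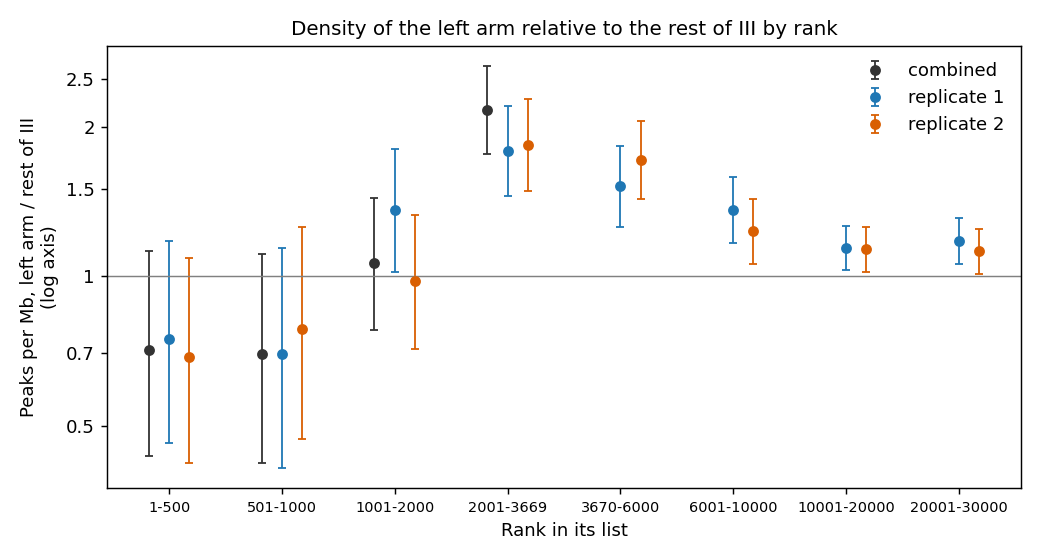
Peaks per Mb in the left arm divided by peaks per Mb in the rest of III (log axis), by rank band, for the combined list and each replicate list, with bars for exact 95% intervals from counting of peaks. Ratios lie below 1 at ranks 1 to 1000, reach 2.17, 1.79 and 1.84 at ranks 2001 to 3669, and are 1.12 to 1.18 at the deepest ranks.

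The 10 strongest members measured 348 to 481 bp and held similar ranks in both ChIP samples, given here with replicate 1 before replicate 2. The best was III 3456195 to 3456630, 436 bp wide and rank 52 of the combined list, with replicate ranks 56 (replicate 1) and 40 (replicate 2). After it came III 2780750 to 2781230, at 481 bp the widest member, with combined rank 66 and replicate ranks 71 and 69. It was followed by III 1418680 to 1419085, with combined rank 76 and replicate ranks 91 and 57. These regions are spread over the arm and do not adjoin each other. III 793568 to 794034 had combined rank 92 and replicate ranks 100 and 83. III 3067892 to 3068288 had combined rank 106 and replicate ranks 110 and 102. The next pair by rank are near neighbours, with midpoints 4.72 kb apart. III 3505181 to 3505559 had combined rank 118 and replicate ranks 119 and 118. III 3509914 to 3510275 had combined rank 147 and replicate ranks 152 and 142. The last 3 of the 10 best lie in separate places. III 3248674 to 3249051 had combined rank 149 and replicate ranks 143 and 156. III 2815027 to 2815374 had combined rank 161 and replicate ranks 178 and 152. III 1618953 to 1619310 had combined rank 162 and replicate ranks 165 and 162. All 10 had the maximum score of 3.80 in the combined list, and the midpoints of their replicate peaks lay at most 10.5 bp from the combined midpoint. No member was among the first 50 combined ranks.

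**Figure D2:**
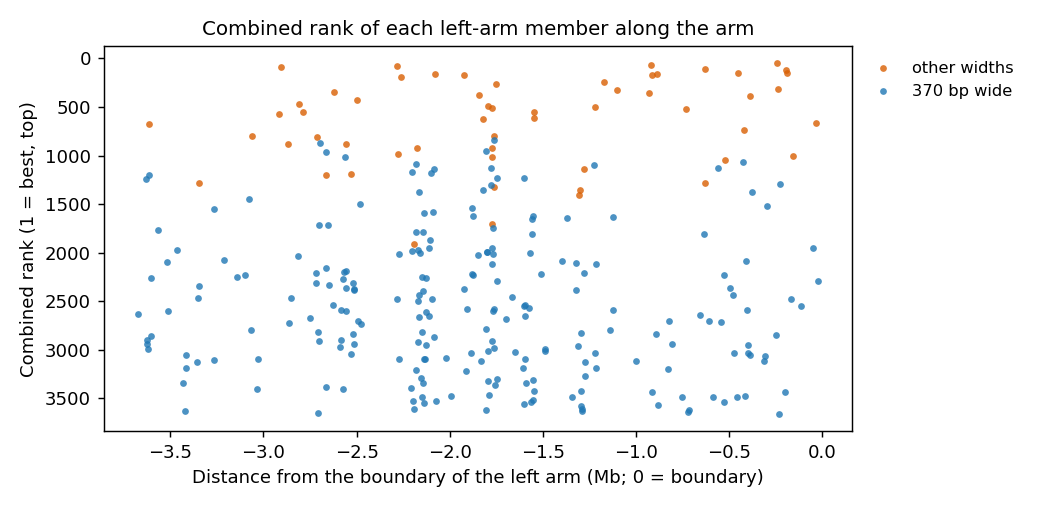
Combined rank of each of the 282 members (1 is best and at the top) against its distance from the boundary of the arm in Mb, with members of the common width of 370 bp set apart from other widths. Members in ranks 1 to 500 are scattered along the arm, all with other widths, while lower ranks form vertical columns of crowded members.

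The number of strong members along the arm did not follow the number of all members. Counted in stretches of 500 kb from the left end, the members numbered 24, 22, 41, 85, 47, 20 and 34, and the last 200 kb before the boundary held 9. The stretch from 1500001 to 2000000 thus had 170 members per Mb and that from 2500001 to 3000000 had 40 per Mb. Members in ranks 1 to 500 numbered 0, 2, 4, 5, 0, 6, 5 and 2 over the same stretches. The stretch from 2500001 to 3000000 had the fewest members of the 7 full stretches and the most in ranks 1 to 500. It contains III 2768695 to 2768974 (rank 352), III 2780750 to 2781230 (rank 66), III 2785835 to 2786219 (rank 172) and III 2815027 to 2815374 (rank 161), all within 50 kb. The leftmost 500 kb had no member in ranks 1 to 500, and their best was III 86447 to 86613 with combined rank 671 and replicate ranks 559 and 1129. The stretch from 2000001 to 2500000 also had none, and its best was III 2482237 to 2482434 with combined rank 503 and replicate ranks 443 and 717. In the other stretches but that from 2500001 the best members were those of ranks 92, 76, 162, 52 and 118 named above. Ranks above 2000 held 56.5% to 72.3% of the members of each of the 7 full stretches, with median ranks of 2221.5 to 2746. In the last 200 kb they held 4 of 9, or 44.4%, with a median rank of 1952. With 9 members, this share cannot be told apart from those of the other stretches or the 45.5% of the whole list.

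Crowding was the other feature of the arm. The median distance between neighbouring midpoints was 4.64 kb, with quartiles of 1.81 and 13.8 kb, against a median of 10.8 kb with quartiles of 4.04 and 23.9 kb in the rest of III. The members with another combined peak within 5 kb numbered 204, or 72.3% (66.7% to 77.5%), against 266 of 557, or 47.8% (43.5% to 52.0%), in the rest of III and 45.9% of the whole list. When midpoints at most 5 kb apart were joined into chains, the arm had 78 members standing alone and 25 pairs. It had 12 chains of 5 or more, with 91 members, or 32.3%, against 2 such chains with 14 peaks, or 2.51%, in the rest of III and 7.39% of the whole list. Chains of 5 or more held 38.4% of the arm peaks among the first 3669 ranks of replicate 1 and 20.9% of those of replicate 2, against 4.11% and 5.02% in the rest of III and 9.29% and 7.74% of the whole lists. The arm was thus above the rest of III in both lists, and its share was higher in replicate 1 than in replicate 2.

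**Figure D3:**
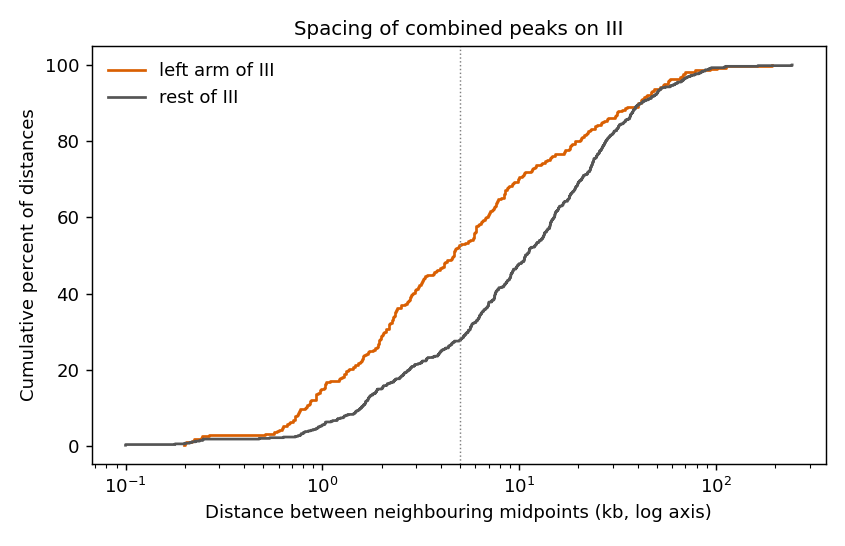
Cumulative percent of distances between neighbouring combined peaks (midpoints, kb, log axis) in the left arm and in the rest of III, with a dotted line at 5 kb and distances below 0.1 kb drawn at 0.1 kb. The curve of the left arm lies to the left over most of its course, with medians of 4.64 kb in the arm and 10.8 kb in the rest.

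The longest chain ran from III 1921207 to 1942147 and joined 18 members at a mean step of 1.21 kb. Its best member was III 1925255 to 1925420, with combined rank 511 and replicate ranks 466 and 662, and the chain's median rank was 1727. Directly to its left a chain of 9 spans III 1894128 to 1911723, with median rank 2783 and a best rank of 488. The fullest 50 kb window of the arm lies across both chains. A chain of 11 spans III 1545725 to 1565950, with a median rank of 3092 and no member better than 1595. Beside it a chain of 8 spans III 1526566 to 1539029, with ranks from 925 to 2915. Another chain of 8 spans III 2095116 to 2107931, with ranks from 1236 to 3552. The longest chains thus differed in strength, and none of these 5 held a member among the 10 best of the arm.

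Few crowded members were strong, and members standing alone also had a low median rank. Of the 91 members in chains of 5 or more, 2 were in ranks 1 to 500, or 2.20% (0.267% to 7.71%), against 2 of 14 in the rest of III (1.78% to 42.8%) and 7.75% of such peaks in the whole list. Their median rank was 2479, against 1097.5 in the rest of III and 1993 in the whole list. Of the 78 members standing alone, 10 were in ranks 1 to 500, or 12.8%, against 15.5% in the rest of III and 12.8% of such peaks in the whole list. Their median rank was 2314.5, against 1611 in the rest of III and 1795.5 in the whole list. The lower median rank of the arm was thus seen in members standing alone too, which says nothing of their density. Windows are a different unit from chains, and some chains of 5 or more lie outside the crowded windows. Without the 6 arm windows of 50 kb that held 10 or more combined peaks, 117 members remained at ranks above 2000 at 34.4 per Mb, against 21.7 per Mb in the rest of III, a ratio of 1.58. The ratio at all ranks was then 1.03.

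The 6 windows with 10 or more combined peaks held 89 members, or 31.6% of the arm (26.2% to 37.3%), against 0 peaks of the rest of III, which allows a share of up to 0.660% there by the exact interval, and 4.58% of the whole list. From left to right they held 11, 16, 15, 23, 14 and 10 members. The replicate 1 list had 10, 14, 12, 24, 15 and 5 peaks of its first 3669 ranks there, and the replicate 2 list had 7, 12, 12, 23, 10 and 8. The same window was the fullest in both samples. Replicate 2 had the lower or an equal count in the first 5, and replicate 1 the lower in the last, III 2400001 to 2450000. That window also had the lowest members, with a median rank of 3199.5 and III 2418278 to 2418376 (rank 1139) as its best. In the other 5 the best ranks were 886, 925, 1595, 488 and 1236. Peaks of any rank covered 19.0% to 36.8% of these 6 windows in replicate 1 and 20.8% to 33.8% in replicate 2, against 16.9% and 16.0% of the whole arm. Coverage in these 6 windows was thus above that of the whole arm in both samples. It was not raised only there: III 3600001 to 3650000, with 0 combined peaks, had 24.4% in replicate 1 and 20.4% in replicate 2. The 6 windows were chosen by combined peaks, which are not independent of the replicate lists. The part of coverage in the crowding was not tested.

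**Figure D4:**
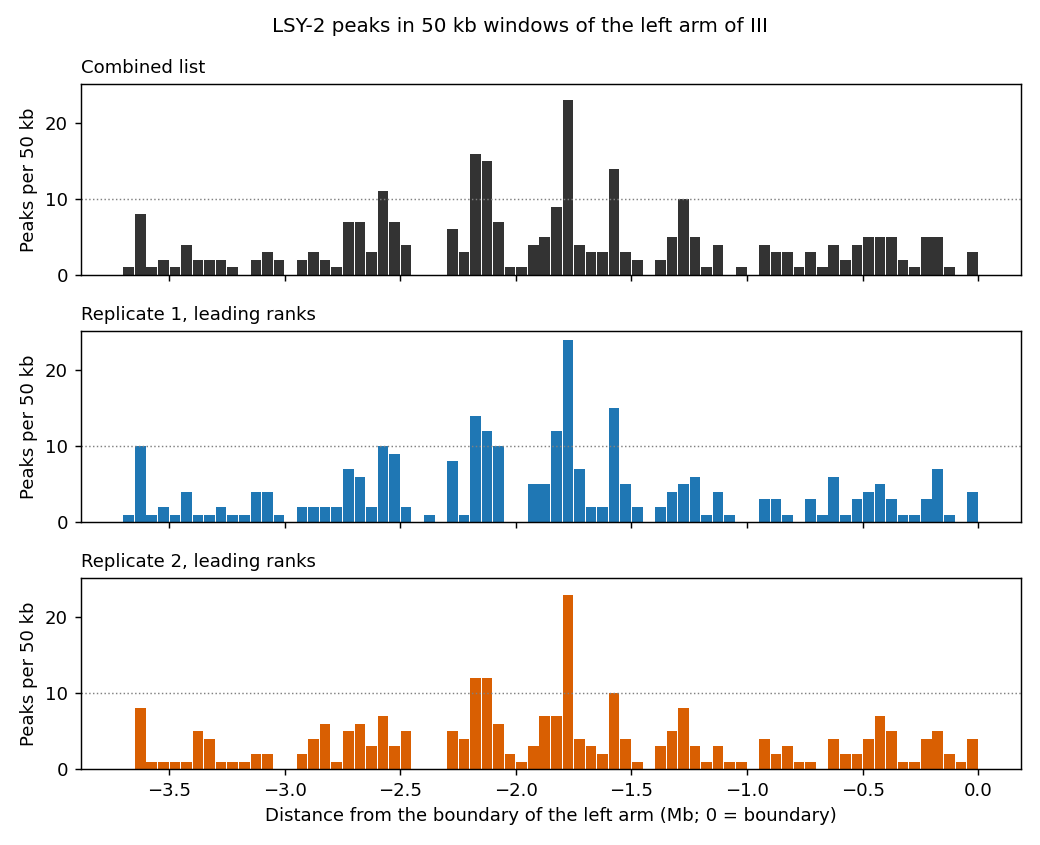
Number of peaks in each 50 kb window of the left arm against distance from its boundary in Mb, in the combined list and among the first 3669 ranks of each replicate list, with a dotted line at 10 peaks. The fullest window holds 23 combined peaks, 24 in replicate 1 and 23 in replicate 2, and the longest gap, 192 kb, is empty or nearly so in all 3.

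Between the crowded places lay long stretches with no member. The longest ran from III 1226624 to 1418680, with 192 kb between midpoints, and was followed by gaps of 112, 102, 93.1 and 78.2 kb. In the longest gap the replicate lists had 50 and 38 peaks, 260 and 198 per Mb, none better than rank 2890 in replicate 1 or 3903 in replicate 2. The arm as a whole had 470 peaks per Mb in each list, so the gap was thin in both samples. Since the combined list is not independent of these lists, that is no separate evidence for the gap. At its right edge stands III 1418680 to 1419085, the member of rank 76. Over the 74 windows of the arm, the number of combined peaks varied with a variance of 4.38 times its mean, against 1.40 times in the 202 windows of the rest of III. In the whole replicate lists this figure was 3.97 and 4.01 in the arm, against 2.38 and 2.51 in the rest. Across the 74 windows the counts of the 2 replicate lists had a Pearson's r of 0.882 and a Spearman's rho of 0.854, a description of windows that share both libraries and their order on the chromosome.

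Width followed rank. Of the members, 226, or 80.1% (95% interval 75.0% to 84.6%), had the common width of 370 bp, against 67.0% in the rest of III and 71.1% of the whole list. None of the 24 members in ranks 1 to 500 had that width, while all 174 above rank 2000 did. In the rest of III it was 1 of 92 and 216 of 219. Within the same ranks the arm and the rest of III were thus near each other in width. The 9 members wider than 370 bp, or 3.19%, against 7.36% in the rest of III and 5.18% of the whole list, were all in ranks 1 to 500. The other 47 that differed were narrower (16.7% of the members, against 25.7% in the rest of III and 23.8% of the whole list), down to 92 bp in III 2401306 to 2401397 (rank 1359) and III 1938164 to 1938255 (rank 802). Scores stood at the maximum in 233 members, or 82.6% (77.7% to 86.9%), against 86.4% (83.2% to 89.1%) in the rest of III and 85.8% of the whole list. The lowest score, 2.38, belonged to III 3468128 to 3468497, the last member by rank at 3657.

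Nearly every member had a counterpart in each ChIP sample. Peaks of both replicates overlapped 280 of 282 members by at least 1 bp, or 99.3% (97.5% to 99.9%), against 553 of 557, also 99.3%, in the rest of III and 99.2% of the whole list. This share may follow from how a combined list is made and is no separate evidence. The remaining 2 had no replicate 1 peak: III 354613 to 354761, with combined rank 1279 and replicate 2 rank 796, and III 1911354 to 1911723, with combined rank 3469 and replicate 2 rank 1764. With a reciprocal overlap of 50% the share was 87.2% (82.8% to 90.9%), against 82.2% (78.8% to 85.3%) in the rest of III and 83.4% of the whole list. Arm and rest had 87.5% and 87.0% at ranks 1 to 500, and 47.8% and 42.2% at ranks 501 to 1000. They had 80.3% and 86.5% at ranks 1001 to 2000, and 94.8% and 93.6% at ranks 2001 to 3669. The higher share of the arm thus did not hold in every band, and the part of rank and width in it was not tested. The nearest replicate peak lay a median of 16.25 bp from the member's midpoint in replicate 1 and 17.0 bp in replicate 2, against 15.5 and 12.0 bp in the rest of III.

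How strongly both samples ranked a member was less even. The first 3669 ranks of both replicates held 165 members, or 58.5% (52.5% to 64.3%), against 397 of 557, or 71.3% (67.3% to 75.0%), in the rest of III and 68.6% of the whole list. Replicate 1 alone placed 78.4% there, against 84.2% in the rest of III and 82.4% of the whole list, and replicate 2 alone 74.5%, against 84.4% in the rest of III and 83.3% of the whole list. Neither replicate placed 16 members there, or 5.67% (3.28% to 9.05%), against 2.69% (1.51% to 4.40%) in the rest of III and 2.94% of the whole list. At like ranks the difference was small. Both replicates placed all 47 members of ranks 1 to 1000 and all 182 such peaks of the rest of III within their first 3669. At combined ranks above 2000 they placed 33.9% of the members there, against 31.1% of the peaks in the rest of III and 34.2% of those in the whole list.

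The best overlapping ranks in the 2 replicates had a Spearman's rho of 0.493 over 280 members. In the rest of III, where a larger part of the peaks is strong, it was 0.728 over 553 peaks. At combined ranks 1 to 500 it was 0.959 in the arm and 0.962 in the rest of III. At ranks 501 to 1000, 1001 to 2000 and 2001 to 3669 it was -0.273, -0.136 and -0.297 in the arm. In the rest of III these bands gave 0.085, -0.237 and -0.366. Within the arm, only the first band had a positive value. These values describe peaks that share libraries. Bands were set by combined rank, which is not independent of the replicate ranks. Low or negative values within a band therefore cannot show that the replicates disagree there. Replicate ranks were within a factor of 2 of each other in 179 members, or 63.9% (58.0% to 69.6%), against 75.4% (71.6% to 78.9%) in the rest of III and 72.2% of the whole list. They were more than a factor of 4 apart in 22 members, or 7.86%, against 7.23% in the rest of III and 7.28% of the whole list. The widest difference with the better rank in replicate 2 was at III 1226255 to 1226624, with rank 16519 in replicate 1 and 1509 in replicate 2. This member stands alone at the left edge of the longest gap. The widest in the other direction was at III 1794348 to 1794717, with rank 1505 in replicate 1 and 15917 in replicate 2. Replicate 1 gave the better rank in 147 members and replicate 2 in 133.

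**Figure D5:**
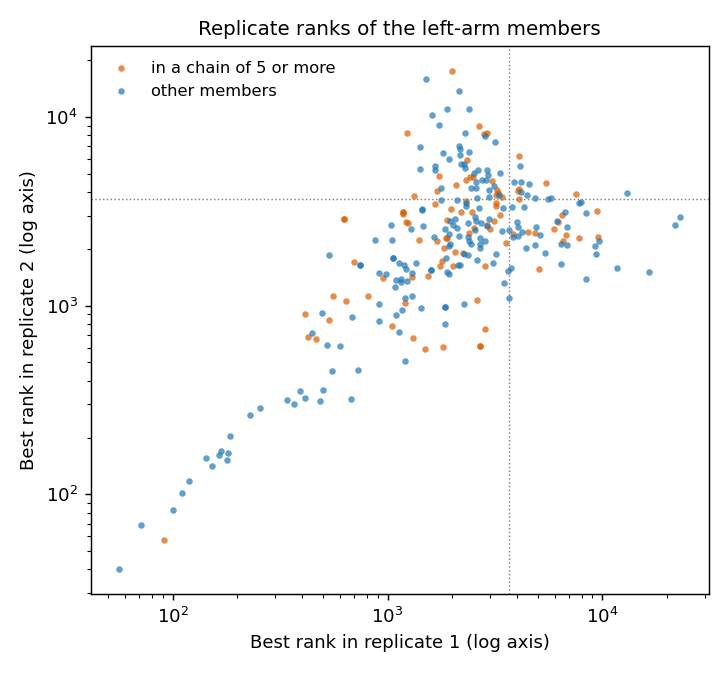
Best rank of an overlapping peak in replicate 1 and in replicate 2 (log axes) for the 280 members found in both, with members of chains of 5 or more set apart, and dotted lines at rank 3669. The strongest members lie close to the diagonal, and members of low rank form a broad cloud with ranks up to 23095 in replicate 1 and 17595 in replicate 2.

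Over the same stretch the replicate lists held many more peaks than the combined list, 1740 in replicate 1 and 1739 in replicate 2, against 3812 and 3926 in the rest of III. Of these arm peaks, 59.4% in replicate 1 (57.1% to 61.7%) overlapped a peak of replicate 2, against 52.7% (51.1% to 54.3%) in the rest of III and 47.6% of the whole list. In replicate 2 the share was 59.3% (57.0% to 61.7%), against 50.2% (48.6% to 51.8%) in the rest of III and 46.9% of the whole list. Peaks covered more of the arm, 16.9% in replicate 1 and 16.0% in replicate 2, against 13.6% and 13.3% of the rest of III. Denser peaks overlap more often by position alone, and the part of this in the shares was not tested. By rank, 25 of 25 arm peaks among the first 500 of replicate 1 overlapped a replicate 2 peak, and so did 82.5% of those at ranks 2001 to 6000 (78.0% to 86.5%) and 41.7% at ranks 20001 to 30000 (37.4% to 46.1%). In the rest of III the same bands gave 91 of 91, 76.4% (72.6% to 79.8%) and 37.0% (34.2% to 39.8%). In the whole list they gave 499 of 500, 76.5% and 32.9%.

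Most replicate peaks of the arm lay outside the combined list, as did most of each whole list. A combined peak was overlapped by 333 of the 1740 arm peaks of replicate 1, or 19.1%, against 16.8% in the rest of III and 14.1% of its whole list. In replicate 2 it was 330 of 1739, or 19.0%, against 15.9% in the rest of III and 13.8% of its whole list. The centre of III had 19.6% in replicate 1 and 18.3% in replicate 2, near the arm. In the first 1000 ranks of replicate 1, 0 of 46 arm peaks lay outside the combined list, against 1 of 173 in the rest of III and 1.6% of all peaks of these ranks. In replicate 2 it was 0 of 47, against 2 of 175 in the rest of III and 2.2% of all, so the arm was near the whole list in this. The best arm peak with no combined counterpart had rank 1618 in replicate 1 and rank 2046 in replicate 2. Among the first 3669 ranks of replicate 1, 47 of 276 arm peaks had none, or 17.0%, against 16.1% in the rest of III and 17.0% of the whole list. In replicate 2 it was 42 of 254, or 16.5%, against 15.2% in the rest of III and 16.6% of the whole list. These shares of the arm were near those elsewhere.

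The boundary cut through no crowded place within the arm, but a chain began just outside it. The last members inside were III 3650683 to 3651052 (rank 1952), III 3664357 to 3664522 (rank 660) and III 3677398 to 3677767 (rank 2292), with midpoints 49.1, 35.6 and 22.4 kb from it. The first peaks outside were III 3701548 to 3701917 (rank 2835), III 3703348 to 3703717 (rank 2697) and III 3704946 to 3705315 (rank 1185), with midpoints 1.73, 3.53 and 5.13 kb from it. With the boundary at 3.2 or 4.2 Mb the ratio of arm to rest was 1.40 or 1.36, close to the 1.38 at 3.7 Mb.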

How the data were processed

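Each row of the authors' deposited lists is a peak with its coordinates and an authors' score, in build WS220 per the file headers. The source field of the files names SPP followed by IDR. The aligner, versions, thresholds, the scale of the score and whether reads were pooled for the combined list are not stated in the files or labels. Per the labels' protocols, embryos were fixed with 2% formaldehyde and 10% of the lysate was kept as input. The labels do not say whether replicates came from separate cultures, and depth is unknown.

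Peaks were shared at an overlap of at least 1 bp, and a member's replicate rank is the best of those overlapping it. Neighbouring combined peaks overlapped each other in 6 cases in the arm and 10 in the rest of III. Such peaks can share a replicate peak and its rank, and each was counted, in chains too. The span of III ran from 968 to 13781254, the first and last bases in the 3 lists. Windows of 50 kb and chains of midpoints within 5 kb described crowding. Regions named are the 10 best members, the best of each 500 kb, the longest chains, gaps and replicate disagreements, the widest and last members and those at the boundary. Chains, gaps and disagreements were added after their values were seen. Members and measures were chosen with earlier results of these data known. Overlap, merging and density steps were tested on simulated data. The software was Python 3.11.15 with scipy 1.17.1, pandas 2.3.3, numpy 2.4.6 and matplotlib 3.10.9.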

Additional observations from a re-analysis of the deposited data

How the results depend on the processing

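Of 51 recomputed values for 10 results, 35 stayed within the 95% counting interval of the reported value and 14 moved outside it. The remaining 2 were ratios below 1 where the reported ratio was above 1. No interval was computed for recomputed values, so these 2 do not show a reversed direction. The density ratio of arm to rest, 1.38, was 0.913 with peaks within 5 kb merged and 0.856 in the better-ranked 50% of the list, both below 1, and 1.03 without windows of 10 or more peaks. That last setting, which removes crowded peaks by construction, also gave 1.58 in place of 2.17 at ranks above 2000 and a median distance of 7.78 kb. The share in ranks 1 to 500 became 16.7% when ranks up to 1000 were counted. At a reciprocal overlap of 50%, a stricter criterion, 87.2% overlapped both replicates, 47.2% lay within the leading ranks of both, and 43.4% of replicate 1 arm peaks overlapped a replicate 2 peak. Between the leading ranks alone that overlap was 62.3%. Leaving out a replicate gave 74.5% to 78.4% within the leading ranks, since only 1 list was then asked for. Chains of 5 or more held 18.8% of members at 3 kb, 60.3% at 10 kb, 38.4% in replicate 1 and 20.9% in replicate 2. The settings for rank bands and chains were chosen after seeing the data. For the settings with no construction named, the cause was not tested. Moving the boundary to 3.2 or 4.2 Mb moved none of the 10 results outside its interval.

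No paired analysis was possible because the inputs, which share replicate numbers with the ChIP samples, were not analysed here. Without read depth, its effect on weak members cannot be stated.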
